A study of Mus musculus with 4 samples.

Results

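Of the 19648 open-chromatin regions that the vehicle library of NMuMG cells gave in complete medium, 705 met no region of either other peak list, which is 3.59% of the vehicle list (95% Wilson interval 3.34 to 3.86%). These vehicle-only regions were selected on the peak calls. Each list was refined by dropping intervals under 150 bp and joining intervals with a gap under 1000 bp, and a vehicle region was kept when it overlapped by no base a region of the TGFβ list or of the 10 min list. Absence from those lists, and the low scores and widths that go with it, are therefore how the regions were defined and are given as a description. What the rule did not use is where the regions lay, which genes were near them and which sequences they held.

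NMuMG is an established epithelial line from mouse mammary gland. In complete medium, which holds serum and insulin, 1 sample received the vehicle (dilute acid with albumin) and 1 received TGFβ1 at 5 ng per ml for 2 h. In a separate experiment 1 sample received vehicle and 1 received TGFβ1 at 5 ng per ml for 10 min, both after 6 h without serum and insulin. A characteristics label of that last sample gives 2 h, and its title, which was followed, gives 10 min. A single list is named in the labels of both samples of the 10 min experiment, so it was treated as the list of that experiment and not of a treatment. The complete-medium lists differ in treatment and library, which cannot be told apart, and the 10 min list differs from both in time, medium and library at once. No condition had more than 1 list, and the lists allow no p-value. The study's methods name biological replicates behind the calls, whereas the labels give 1 sample per condition, so what the score compares was not settled. The lists hold no reads. The study's reporting summary gives read totals, which were not used as data here, and among the libraries used here the vehicle library in complete medium has the highest total. The intervals below are at 95%, cover the counting of regions alone, and treat neighbouring regions as independent, which they are not.

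Accessible regions fall into promoters, at transcription start sites (TSSs), and distal elements, many of which are enhancers or sites of the insulator protein CTCF. AP-1, the dimer of Fos and Jun proteins, binds many enhancers of epithelial cells, and its genes are induced by serum and by TGFβ. TGFβ acts through receptors that phosphorylate SMAD2 and SMAD3, which enter the nucleus with SMAD4, and in NMuMG cells prolonged exposure leads to an epithelial to mesenchymal transition. ZEB and SNAI proteins, which bind a form of E-box, are repressors that silence epithelial genes in that transition.

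The label of the line was checked against marker genes. A vehicle region lay at a TSS of 3 of 10 epithelial markers (Krt8, Krt18 and Grhl2), of 1 of 6 fibroblast markers (Col1a1), of 0 of 6 immune and of 0 of 5 endothelial markers. Most epithelial markers had no such region, and no share over all genes was set beside these counts. The check therefore does not settle the label. An open promoter is not expression, and the lists give no measure of expression.

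Sequences of 6 distal vehicle-only regions show what these elements look like. They are given on the plus strand of mm9 (NCBIM37), with the central 300 bases printed where a region was longer. The first pair headed the list by score. Both had the score of 1000, at which the scores are capped. In the first, capitals mark a GC box (GGGCGG, read here on the other strand), the site of SP and KLF factors. In the second, capitals mark an NF-Y site (CCAATCA, also read on the other strand).
chr12:114172580-114172753, 4873 bp from the TSS of Jag2: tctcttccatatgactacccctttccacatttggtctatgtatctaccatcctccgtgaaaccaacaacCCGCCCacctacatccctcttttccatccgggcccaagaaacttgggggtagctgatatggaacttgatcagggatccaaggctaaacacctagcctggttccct
chr13:62754527-62754694, near 6720489N17Rik: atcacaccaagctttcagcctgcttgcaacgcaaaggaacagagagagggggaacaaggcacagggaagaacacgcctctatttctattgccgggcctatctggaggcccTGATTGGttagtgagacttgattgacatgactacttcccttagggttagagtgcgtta

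Next are the highest-scoring regions with a match to AP-1 (TGACTCA or TGAGTCA), which most vehicle-only regions lacked. Capitals mark the match.
chr15:10430682-10430893, in Ttc23l, score 930: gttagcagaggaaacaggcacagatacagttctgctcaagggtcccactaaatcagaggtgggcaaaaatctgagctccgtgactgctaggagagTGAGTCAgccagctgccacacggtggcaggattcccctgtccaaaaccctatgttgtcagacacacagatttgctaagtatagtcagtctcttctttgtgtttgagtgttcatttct
chr7:17588000-17588168, near Ccdc8, score 920: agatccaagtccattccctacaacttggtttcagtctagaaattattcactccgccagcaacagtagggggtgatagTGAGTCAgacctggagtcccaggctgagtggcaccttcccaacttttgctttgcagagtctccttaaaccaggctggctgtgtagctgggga

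Last are the highest-scoring regions with a match to the core of the CTCF motif, which was commoner in vehicle-only regions than in the vehicle list as a whole. Capitals mark the match.
chr3:127466131-127466310, in an intron of Alpk1, score 996: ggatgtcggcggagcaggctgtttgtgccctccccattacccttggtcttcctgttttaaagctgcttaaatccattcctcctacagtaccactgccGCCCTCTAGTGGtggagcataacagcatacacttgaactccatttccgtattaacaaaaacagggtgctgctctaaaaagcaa
chr9:23385449-23385748, the centre of chr9:23385438-23385759, nearest to Bmper, score 886: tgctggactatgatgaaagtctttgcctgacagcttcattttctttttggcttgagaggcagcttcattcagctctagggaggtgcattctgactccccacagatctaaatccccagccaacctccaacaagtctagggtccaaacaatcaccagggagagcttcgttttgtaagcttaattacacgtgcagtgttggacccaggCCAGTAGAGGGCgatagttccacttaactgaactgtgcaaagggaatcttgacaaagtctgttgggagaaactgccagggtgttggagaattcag

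Vehicle-only regions were narrow and low in score. Their median width was 230 bp (interval 221 to 241 bp, quartiles 186 and 312 bp, range 150 to 873 bp) and together they covered 186 kb. Of the 705, 701 came from a single deposited interval, and 476 held 1 peak. The score, which the authors derived from the reproducibility of a peak, ran from 540 to 1000 in the list. The regions had a median score of 612 (quartiles 569 and 678), against 951 for the 16642 vehicle regions found in all 3 lists, and 4 of them reached the cap of 1000 against 7394. The 1741 regions shared with the TGFβ list alone (median 291 bp, score 672) and the 560 shared with the 10 min list alone (249 bp, 664) lay nearer to the vehicle-only regions.

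The vehicle-only share of the list fell with each step in score. It was 15.6% (14.1 to 17.3%) of the 1969 regions scored 540 to 599, 8.28% of those at 600 to 699, 2.93% at 700 to 849, 0.770% at 850 to 999 and 0.0533% of the 7506 regions at the cap. By width it fell from 20.7% of regions of 150 to 199 bp to 0.339% of those of at least 500 bp. The lowest score classes alone held 307 and 257 of the 705 regions.

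Most of the regions lay kilobases away from any region of the other lists. The gap to the nearest TGFβ region had a median of 11079 bp (interval 9938 to 12771 bp) and the gap to the nearest 10 min region 17834 bp (15404 to 20583 bp). To the nearer of both lists, 12 regions had a gap under 200 bp, 51 of 200 to 1000 bp, 283 of 1000 to 10000 bp, 264 of 10000 to 50000 bp and 95 a larger one. The region just inside the rule, at chr3:62153503-62153800 (score 621), lay 13 bp from the nearest call, and the vehicle region just outside it, at chr8:125865376-125865622 (score 540), overlapped a call by 27 bp. Intervals under 150 bp, which the refinement drops, overlapped 46 of the 705 regions (6.52%). For 41 of these the narrow interval was in the TGFβ list alone, for 3 in the 10 min list alone and for 2 in both. The TGFβ list holds more such narrow intervals, 5521 against 959 in the 10 min list.

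Vehicle-only regions had fewer neighbours than the regions in all 3 lists. Within 50 kb of 31.6% of them (28.3 to 35.2%) there was no other vehicle region, against 21.8% for the regions in all 3 lists and 27.1% (25.1 to 29.2%) for those shared with the TGFβ list alone, whose interval overlaps. For the other lists, calls overlapping the region itself were not counted. No other TGFβ region lay within 50 kb of 15.2% (12.7 to 18.01%), against 8.42% and 11.9% (10.5 to 13.6%). No other 10 min region lay within 50 kb of 24.7% (21.6 to 28.0%), against 15% and 21.8% (19.9 to 23.8%). For regions shared with the 10 min list alone these shares were 4.64% and 11.6%, and 17.7% had no other vehicle region. The rule used the TGFβ and 10 min calls, so the shares for those lists are a description. There were 14 pairs of neighbouring vehicle-only regions with a gap under 50 kb and 3 under 10 kb. The closest pair, at chr11:79898932-79899135 (score 665) and chr11:79900476-79900684 (score 662), was 1340 bp apart at Atad5, which unloads the replication clamp from DNA.

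By chromosome, the vehicle-only share was highest on chromosome 15, at 57 of 1031 vehicle regions (5.53%, 4.29 to 7.10%), the only chromosome of 20 whose interval missed the share of all chromosomes. The X chromosome had 5.25% (25 of 476) and chromosome 19 4.78% (38 of 795), and chromosome 18 had the lowest share, 2.51% (12 of 478). Without chromosome 15 the share of the list was 3.48%. The 20 intervals were read at 95% each, with no allowance for their number.

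**Figure D1:**
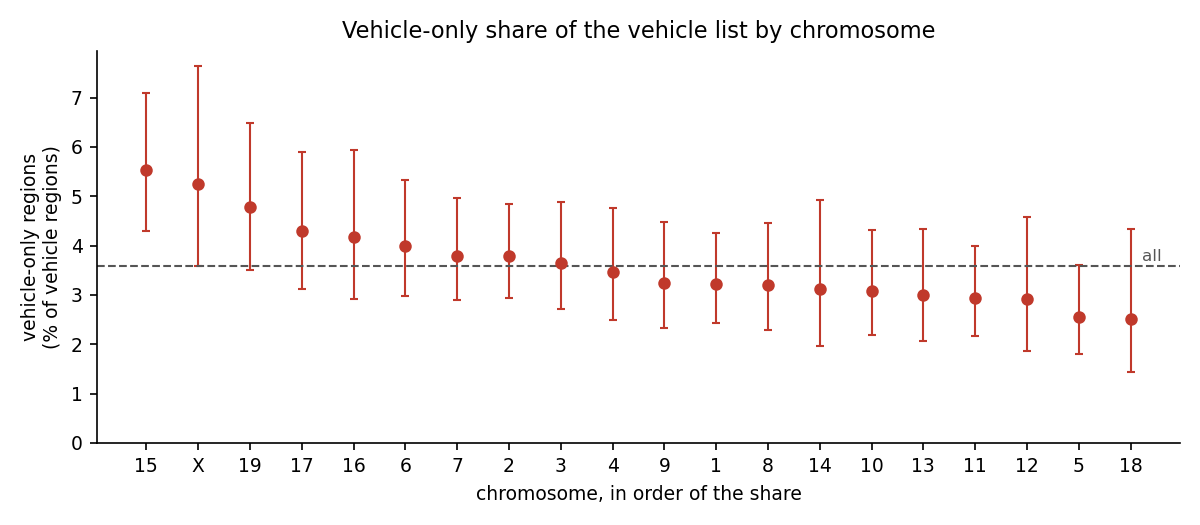
Vehicle-only regions as a percentage of the vehicle regions on each chromosome, in order of the share; points are shares, bars are 95% Wilson intervals, and the dashed line is the share over all chromosomes (3.59%). Chromosome 15 is at 5.53% and chromosome 18 at 2.51%, and the intervals of all chromosomes other than 15 hold the dashed line.

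Most sequences of these regions occur once in the genome. A search of mm9 for matches of at least 90% identity over at least 80% of the region found 687 regions at 1 place and 18 at more (2.55%, 1.62 to 4.00%). The share was 1.21% (0.790 to 1.84%) for regions shared with the TGFβ list alone and 1.07% (0.492 to 2.32%) for those shared with the 10 min list alone, and these intervals overlap that of the vehicle-only regions. Of the 18, 14 were found at 2 places, 3 at 3, and 1 at 1065, counting at most 50 places on a chromosome. That region was chr11:51620412-51620576, one of the 4 with the score of 1000. The region chr13:62754527-62754694, also at 1000 and printed above, was found at 2 places. Whether reads from other copies contributed to these calls was not tested.

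Vehicle-only regions were mostly distal. A region was placed at a TSS when it came within 1000 bp of an annotated transcript start, and 90 of the 705 did (12.8%, 10.5 to 15.4%), against 50.5% of the regions in all 3 lists, 25.4% of those shared with the 10 min list alone and 10.7% of those shared with the TGFβ list alone. The difference was -12.6 points (-17.0 to -8.25) from the regions shared with the 10 min list and 2.03 points (-0.713 to 5.02) from those shared with the TGFβ list, an interval that holds 0. Introns held 37.4% of the vehicle-only regions (264), exons away from a TSS 5.67% (40) and intergenic DNA 44.1% (311). Exons held 2.35% of the regions in all 3 lists, a class with 50.5% at a TSS. They held 4.11% of the regions shared with the 10 min list alone and 2.99% of those shared with the TGFβ list alone. In regions found only in the 10 min list or only in the TGFβ list the exon shares were 5.61% and 4.67%.

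**Figure D2:**
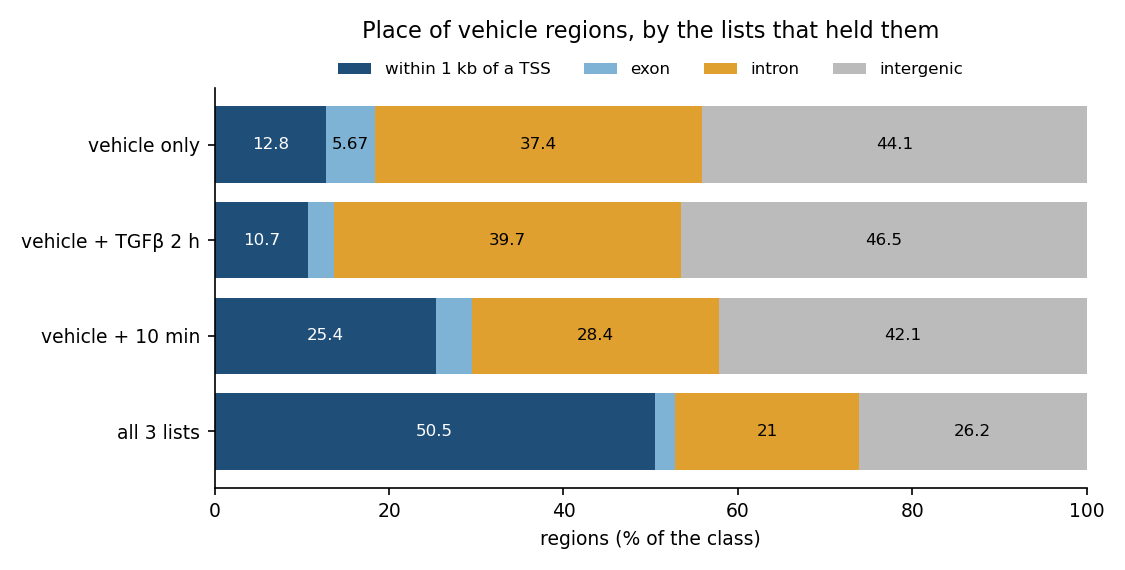
Place of vehicle regions as a percentage of each class, the class being the lists that held a region; each bar adds up to 100%. The TSS part is 12.8% of the vehicle-only regions and 50.5% of the regions in all 3 lists, and the intergenic part is 44.1% and 26.2%. The intergenic part is 46.5% of the regions shared with the TGFβ list alone and 42.1% of those shared with the 10 min list alone.

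The low TSS share was not confined to low scores. Among regions scored 540 to 599, 13.7% of the vehicle-only regions and 23.4% of the vehicle regions called elsewhere lay at a TSS, and at 600 to 699 the shares were 12.1% and 27.8%. At 700 to 849 they were 12.5% and 38.0%, and at 850 to 999 they were 12.0% and 45.3%. The share rose with score among the regions called elsewhere and stayed near its value among the vehicle-only ones. It was 17.9% when only touching intervals were joined and 29.6% when every list was limited to its peaks at or above its median score, a setting that kept 14 of these regions and drew in others.

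Away from TSSs, vehicle-only regions lay closer to genes than the regions shared with the TGFβ list. The median distance of the 615 distal regions to the nearest protein-coding TSS was 24184 bp (interval 22147 to 26649 bp), against 32771 bp for the regions shared with the TGFβ list alone, 28828.5 bp for those in all 3 lists and 19989 bp for those shared with the 10 min list alone. A TSS lay within 10 kb of 38.5% of them, 5.81 points (1.91 to 9.84) above the regions in all 3 lists.

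The TSSs with a vehicle-only region were poorer in GC and CpG than those open in all 3 lists, as were the TSSs shared with the TGFβ list alone. GC content in the central 400 bp was 59.1 ± 10.4% (mean ± SD over 90 regions) against 63.9 ± 8.39% for TSS regions in all 3 lists, and the CpG content relative to that expected from base composition was 0.479 against 0.776. A GC content of at least 60% was found in 41.1% against 70.5%. A GC box (GGGCGG, either strand) was found in 43.3% against 75.4%, and the core of the ETS site (CCGGAAG), common in promoters of housekeeping genes, in 7.78% against 22.5%. At TSSs shared with the TGFβ list alone the GC content was 56.8 ± 10.4% and the relative CpG content 0.494, and the vehicle-only share differed by -0.517 points (-12.6 to 11.9) for the GC box, by 1.36 points (-4.61 to 9.26) for the ETS core and by -1.13 points (-13.1 to 11.3) for a GC content of at least 60%. TSS regions found in the TGFβ list only were lower still, with a GC content of 54.2 ± 9.65% and a GC box in 31.1%, from which the vehicle-only share differed by 12.2 points (2.08 to 22.9). The low GC and CpG content was therefore not particular to the vehicle-only TSSs. Among distal regions the GC content was 48.1 ± 6.04% and 48.2 ± 6.91%.

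Of the 90 regions at a TSS, 73 were at protein-coding transcripts, and 36 overlapped the start itself. The TGFβ list held a region at some TSS of the same gene for 33 and the 10 min list for 27, while neither did for 55 (61.1%). The rule excludes a call over the region itself, so these counts follow in part from it. No share over other TSS regions was set beside them. The highest score among the 90 belonged to Sparc, which encodes a collagen-binding matricellular protein (chr11:55233315-55233530, score 913, over the start). No TGFβ region lay within 8090 bp of it and no 10 min region within 1385 bp. The region at Coil, which encodes the Cajal body scaffold coilin (chr11:88831316-88831894, score 908), was one of those with a second place in the genome. A region at the starts of 2310014H01Rik and 5530401N12Rik followed (chr17:36002623-36003026, score 901).

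Other starts of protein-coding genes in this order were those of Lypd1 (chr1:127808111-127808651, score 824), Fgf13, which encodes an FGF that stays in the cell (chrX:56387261-56387565, 795), and Pla1a, which encodes a phospholipase (chr16:38433234-38433461, 789). They were followed by Mgat4a, which branches N-glycans (chr1:37597761-37598062, 776), Nr5a2, which encodes an orphan nuclear receptor (chr1:138857139-138857332, 768), B630019K06Rik (chrX:8469875-8470508, 767) and Tfdp1, which encodes the DNA-binding partner of E2F proteins (chr8:13338587-13338871, 764). The start of Fgf13 had a TGFβ region 367 bp away, whereas the nearest region of either list was over 100 kb from Lypd1, at 141043 bp. The widest of all vehicle-only regions, 873 bp with 4 peaks, lay over the start of Nfkb1, which encodes the p50 subunit of NF-κB (chr3:135353680-135354552, score 559). Its nearest TGFβ region was 6936 bp and its nearest 10 min region 15404 bp away.

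The highest-scoring vehicle-only regions were distal, and among the first 10 none lay at a TSS. The region with the score of 1000 on chromosome 12 was nearest to Jag2, a Notch ligand, and another, at chr17:15422435-15422641 (score 972), to Dll1, also a Notch ligand, at 90298 bp. The region of score 1000 on chromosome 11 was 43222 bp from Sar1b, a GTPase of vesicle budding, and the last of that score lay in an intron of Slc22a29, a solute carrier (chr19:8326691-8326841). Introns of Alpk1 (score 996), of Sox5, a transcription factor of cartilage and neurons (chr6:144016044-144016389, 964), and of Csmd2 (chr4:128122668-128123045, 957) held 3 more. The others were intergenic, at chr12:4578804-4578971 (score 998, nearest to Gm3625) and at chr15:7666124-7666581 (978), 94429 bp from the growth factor gene Gdnf.

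The remaining regions among the 5 widest were 839 bp near Prdx5, a peroxiredoxin (chr19:6972354-6973192), 777 bp near Gm5373 (chr8:74324359-74325135), 761 bp over an exon of 1700030F18Rik (chr15:99775530-99776290) and 691 bp at the start of Prr5l (chr2:101655249-101655939). Their scores, 594 to 673, were below those of all of the first 10 regions by score.

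Each region was assigned to its nearest protein-coding gene and to any gene that contains it. Of 22208 protein-coding genes, 746 then had a vehicle-only region (3.36%, 3.13 to 3.60%), and 12138 had a vehicle region of any class (54.7%). Among genes of all types 30 had 2 vehicle-only regions. Rbms1, which encodes a protein binding single-stranded nucleic acids, had 3, all in introns. They were chr2:60708935-60709342 (score 810, 75 bp from a TGFβ region), chr2:60766263-60766502 (score 640) and chr2:60663811-60664097 (score 566).

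Genes of the TGFβ pathway and of the epithelial to mesenchymal transition were looked up in lists chosen with earlier results of these data known. With lists of this length the counts have wide intervals, and the genes of every list had a vehicle region of any class more often than genes at large (75.0 to 100% against 54.7%). Of 18 TGFβ ligands, receptors and SMADs, 1 had a vehicle-only region (5.56%, 0.988 to 25.8%), in an intron of Smad1, which transduces BMP signals (chr8:81896320-81896767, score 543). Of 18 feedback and target genes of the pathway, 3 had one (16.7%, 5.84 to 39.2%), and 15 had a vehicle region of any class. The 3.36% of all genes lay below this interval, and by less below those of the mesenchymal and mammary lists. That base counts genes with no vehicle region at all, so no enrichment can be read from it. The 3 genes were Smurf1, a ubiquitin ligase for SMADs and receptors (intron, chr5:145706930-145707190, score 912), Id2, an inhibitor of helix-loop-helix factors (3385 bp from its TSS, chr12:25777198-25777571, 825), and Ski, a co-repressor of SMADs (intron, chr4:154571942-154572101, 764). The region in Ski held an AP-1 match and a SMAD match (CAGACA), and those of Smurf1 and Id2 held neither.

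Of 14 transcription factors of the transition 1 had a vehicle-only region, 192980 bp from Sox4 in an intron of 2610307P16Rik (chr13:28849708-28850030, score 756), with regions of both other lists 723 bp away. Genes of epithelial junctions and keratins with a vehicle-only region included Dsp, which encodes the desmosome protein desmoplakin (over its start, chr13:38243013-38243477, score 617), and Cdh1, which encodes E-cadherin (intron, chr8:109148853-109149121, 548). A 10 min region lay 896 bp and a TGFβ region 1194 bp from the vehicle-only region at Dsp. Of 16 mesenchymal and contractile genes 2 had one, Sparc at its start, given above, and Col1a1, a collagen chain, at 69412 bp (chr11:94727938-94728125, 630).

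Among 16 transcription factors of mammary epithelium, 2 had a vehicle-only region. That of Klf5 was 104568 bp away (chr14:99802479-99802832, score 629) and held AP-1 and TEAD matches, and that of Foxa1 lay 67419 bp away in an intron of Mipol1 (chr12:58579464-58579688, 628). Of 14 genes of chromatin architecture 1 had one, Stag2, which encodes a cohesin subunit (100 bp from a start, chrX:39503601-39503777, 701). It lay between other vehicle regions at the same gene, the nearer 1086 bp away, which the other lists also held. None of 12 AP-1 genes had one (interval 0 to 24.2%), and 10 of the 12 had a vehicle region of another class.

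Distal vehicle-only regions held AP-1 matches less often than the vehicle regions shared with the TGFβ list or found in all 3 lists. Motifs were searched on both strands in the central 400 bp of each region, and a match is a sequence and not evidence of binding. AP-1 (TGACTCA or TGAGTCA) was found in 108 of 615 distal vehicle-only regions (17.6%, 14.8 to 20.8%), against 44.3% of all 10833 distal vehicle regions. The share was 48.0% in regions of all 3 lists, a difference of -30.5 points (-33.5 to -27.1), and 41.4% in regions shared with the TGFβ list alone, a difference of -23.8 points (-27.6 to -19.8). It was 20.8% in regions shared with the 10 min list alone, and that difference, -3.25 points (-8.26 to 1.58), has an interval that holds 0. Of the 2801 distal regions found in the 10 min list only, 21.5% held a match (difference -3.93 points, -7.14 to -0.400).

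**Figure D3:**
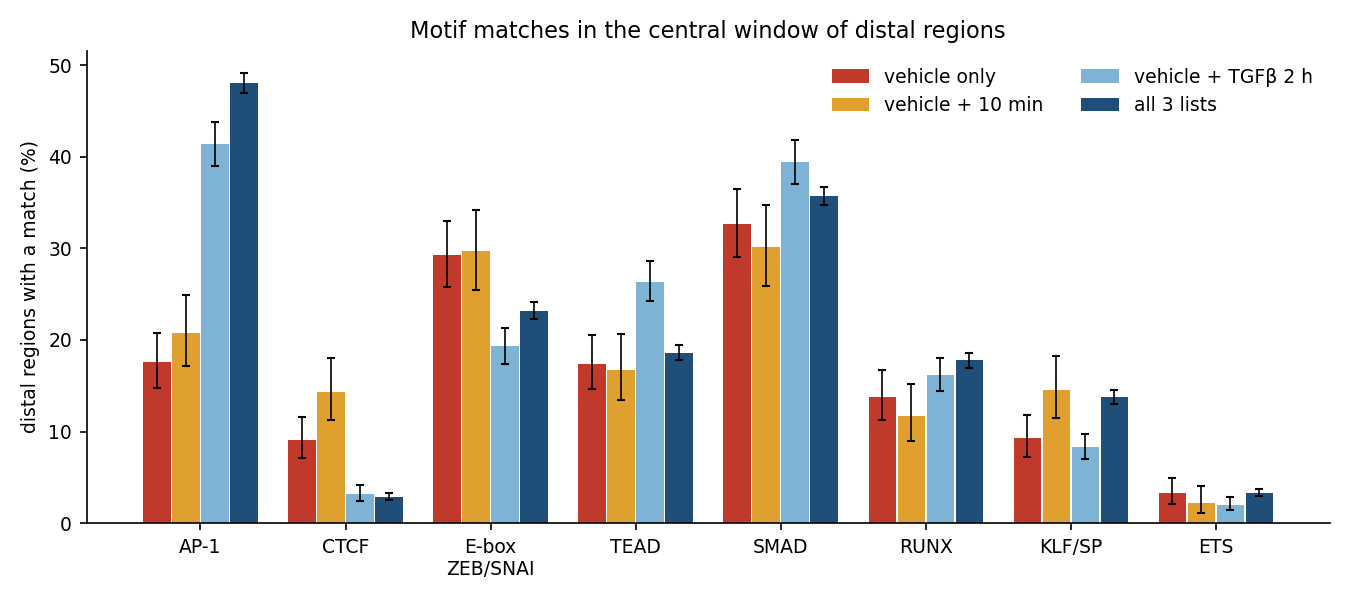
Percentage of distal vehicle regions with a match to each motif in the central 400 bp, by the lists that held the region; bars are shares and whiskers are 95% Wilson intervals, and SMAD stands for the CAGACA element. AP-1 is at 17.6% in vehicle-only regions and 48.0% in regions of all 3 lists, and CTCF is at 9.11% and 2.86%.

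CTCF matches went the other way. The CTCF core was matched in 56 distal vehicle-only regions (9.11%, 7.08 to 11.6%), against 3.71% of all distal vehicle regions. The difference was 6.24 points (4.18 to 8.80) from regions of all 3 lists (2.86%) and 5.89 points (3.63 to 8.54) from those shared with the TGFβ list alone (3.22%). Regions shared with the 10 min list alone (14.4%) and those found in the 10 min list only (15.6%) held CTCF matches more often, and the vehicle-only share differed from theirs by -5.25 points (-9.46 to -1.29) and -6.53 points (-8.99 to -3.68). Matches to AP-1 and CTCF shared a window in 3 of the 615 regions (0.488%), and 26.2% held either of them, against 50.3% of regions in all 3 lists. Most distal vehicle-only regions thus held neither motif. With 1 mismatch allowed in the CTCF core, a setting chosen after the data were seen, the shares rose to 27.6% of vehicle-only regions, 34.4% of those shared with the 10 min list, 11.8% of those shared with the TGFβ list and 10.2% of those in all 3 lists, in the same order.

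The AP-1 share was lower than in the vehicle regions called elsewhere in each score class below 850, as the plot by score class shows. Among regions scored 540 to 599, 17.0% of distal vehicle-only regions and 40.9% of the vehicle regions called elsewhere held a match, at 600 to 699 the shares were 16.4% and 41.3%, and at 700 to 849 they were 20.4% and 44.1%. At 850 to 999, where 6 of 22 vehicle-only regions held one (27.3%), the intervals overlap. Regions shared with the 10 min list alone had shares of 19.2%, 19.0% and 19.6% in the classes below 850. Their intervals overlap those of the vehicle-only regions. By width the vehicle-only and called-elsewhere shares were 15.6% and 34.4% for regions of 150 to 199 bp and 20% and 50.05% for those of 350 to 499 bp. Classes of distal regions by GC content, equal in number over the distal vehicle regions, gave 20.4%, 19.4% and 13.7% from the lowest to the highest, against 51.1%, 52.5% and 41.4% of the regions in all 3 lists.

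**Figure D4:**
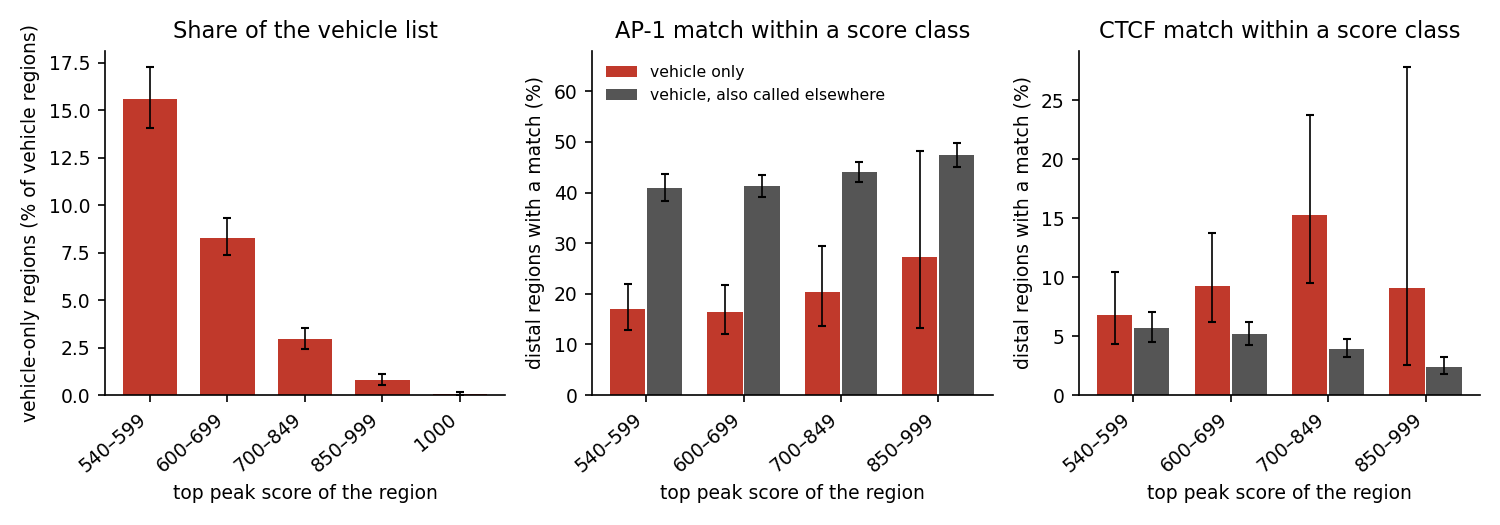
Left, vehicle-only regions as a percentage of the vehicle regions in each class of the top peak score; middle and right, percentage of distal regions with an AP-1 or a CTCF match within a score class, for vehicle-only regions (red) and vehicle regions also called elsewhere (grey). Whiskers are 95% Wilson intervals; the vehicle-only share falls from 15.6% to 0.0533%, and AP-1 in the lowest class is at 17.0% and 40.9%.

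The AP-1 share depended on which calls were let in. It was 28.2% when intervals under 300 bp were dropped from every list, which left 514 vehicle-only regions that took in 197 of the 705, and 32.8% when every list was limited to its peaks at or above its median score. Limiting the vehicle list alone in that way left 14 regions, 7.14% of whose distal windows held a match. With windows of 500 bp each side of the centre it was 27.0%.

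The CTCF difference from the vehicle regions called elsewhere was widest at scores of 700 to 849. At 540 to 599 the share was 6.79% (4.34 to 10.5%) in vehicle-only regions and 5.66% (4.52 to 7.06%) in the vehicle regions called elsewhere, whose intervals overlap. At 600 to 699 it was 9.29% (6.16 to 13.8%) and 5.15% (4.28 to 6.19%), whose intervals just meet, and at 700 to 849 it was 15.3% (9.50 to 23.7%) and 3.91% (3.19 to 4.78%). Regions shared with the 10 min list alone had 16.2% (10.8 to 23.4%), 14.1% (9.31 to 20.8%) and 14.1% (8.45 to 22.7%) in these classes. Their interval lay above that of the vehicle-only regions at 540 to 599 and overlapped it in the other classes. By the same classes of GC content the vehicle-only share was 9.94%, 9.95% and 7.73% against 1.37%, 2.58% and 4.41% of the regions in all 3 lists. The share was 6.64% with intervals under 300 bp dropped and 4.01% with every list limited to its peaks at or above its median score.

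Both motifs lay near the centre of the regions. The CTCF match was a median of 16.5 bp from the centre, and 46 of 56 were within 50 bp (82.1%, 70.2 to 90%), against a median of 39 bp and 56.4% within 50 bp in regions of all 3 lists. In regions shared with the 10 min list alone the median was 21.5 bp, with 80% (68.2 to 88.2%) within 50 bp. The close centring was therefore not particular to the vehicle-only regions. The AP-1 match lay a median of 51.5 bp from the centre and 48.5 bp in regions of all 3 lists. In windows of 400 bp placed 2000 bp to either side, AP-1 matches fell to 5.53% and 4.39% and CTCF matches to 0 (interval up to 0.621%) and 0.325%. The central shares of 17.6% and 9.11% were thus above the flanks of the same regions.

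**Figure D5:**
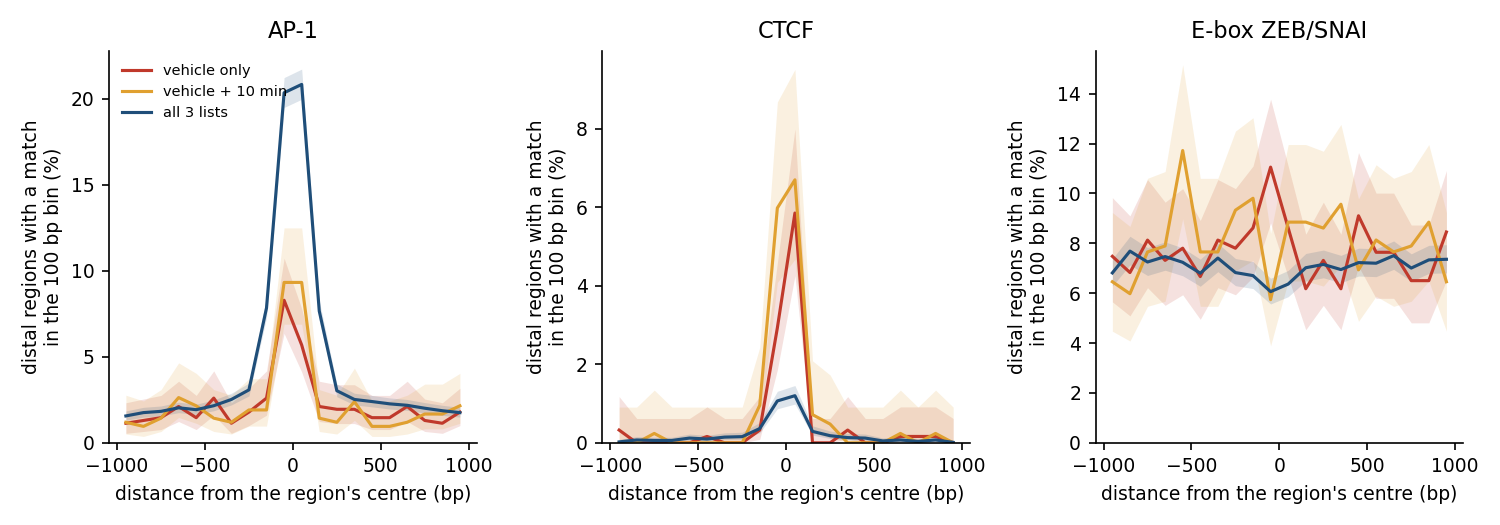
Percentage of distal regions with a motif match in each 100 bp bin, against the distance of the bin from the centre of the region, for vehicle-only regions (red), regions shared with the 10 min list alone (yellow) and regions in all 3 lists (blue); bands are 95% Wilson intervals and the y axes differ. AP-1 and CTCF matches peak at the centre in all classes shown, and E-box matches form no such peak in regions of all 3 lists.

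The ZEB and SNAI form of the E-box (CACCTG) was found in 29.3% of distal vehicle-only regions (25.8 to 33.0%), against 23.2% of all distal vehicle regions. This was 6.06 points (2.48 to 9.88) above the regions in all 3 lists and 9.96 points (5.95 to 14.1) above those shared with the TGFβ list alone, while the difference from those shared with the 10 min list alone, -0.397 points (-6.11 to 5.19), has an interval that holds 0. By the same classes of GC content the shares were 17.1%, 27.9% and 39.9%, against 15.1%, 23.3% and 30.1% of the regions in all 3 lists. The element was nearly as frequent beside the regions as within them, at 25.4% and 27.5% in the windows 2000 bp away, and its matches lay a median of 80 bp from the centre.

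The SMAD element CAGACA was found in 32.7% of distal vehicle-only regions (29.1 to 36.5%), against 35.9% of all distal vehicle regions. It differed by -6.70 points from the regions shared with the TGFβ list alone (39.4%), and its difference from those in all 3 lists, -3.03 points (-6.77 to 0.910), has an interval that holds 0. Another SMAD element, GGCGCC, was found in 5.53% (3.98 to 7.63%), against 4.12% of all distal vehicle regions and 2.45% of those shared with the TGFβ list alone. Its differences from regions in all 3 lists, 1.22 points (-0.389 to 3.36), and shared with the 10 min list alone, 0.983 points (-1.91 to 3.63), have intervals that hold 0. A SMAD palindrome was also searched and was found in 0.325%, against 0.452% of all distal vehicle regions. Sites of TEAD factors, the partners of YAP (ACATTCC or GCATTCC), were found in 17.4%, against 19.6% of all distal vehicle regions. The difference was -8.99 points (-12.6 to -5.14) from those shared with the TGFβ list alone and 6.65 points (3.61 to 10.03) from the regions found in the 10 min list only.

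RUNX sites (TGTGGTT) were found in 13.8% of distal vehicle-only regions against 17.1% of all distal vehicle regions, and GC boxes (GGGCGG) in 9.27% against 12.7%. The ETS core (CCGGAAG) was found in 3.25% against 3.06%. Regions shared with the 10 min list alone held RUNX sites in 11.7% and GC boxes in 14.6%. Those shared with the TGFβ list alone held them in 16.2% and 8.30%. Of these differences from the vehicle-only regions, only that for GC boxes from the 10 min class, -5.33 points (-9.56 to -1.34), has an interval without 0. No match of the GRHL, NRF1, RFX or p53 patterns, which are longer, was found in the distal vehicle-only regions. These patterns were rare in all distal vehicle regions too, at 0.166%, 0.102%, 0.00923% and 0.0185%, so their absence from 615 regions shows little. In their shares of AP-1, E-box and TEAD matches the vehicle-only regions stood nearer to the regions shared with the 10 min list alone than to those shared with the TGFβ list alone, and in CTCF they stood between both.

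The motif shares were also set beside the distance to the other lists. AP-1 matches were found in 14.3% (7.10 to 26.7%) of distal vehicle-only regions with a gap under 1000 bp to the nearest region of the other lists, in 19.3% at 1000 to 10000 bp, in 15.5% at 10000 to 50000 bp and in 20% (12.9 to 29.7%) beyond. CTCF matches were found in 4.08%, 9.64%, 10.8% and 5.88%, and for each motif the intervals of all 4 classes overlap.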

How the data were processed

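ATAC-seq peak lists of NMuMG cells were analysed as deposited, 3 lists for 4 samples. Per the study's methods, the authors ran the ENCODE ATAC-seq pipeline for each condition, called peaks with MACS2 (v2.1.2) and kept those with an irreproducible discovery rate of at most 0.05 between replicates. The methods name biological replicates and the labels 1 sample per condition, a conflict that was not settled. A separate Tn5 shift for peak calling was not given in the sources used here. The fifth column of the deposited lists is the authors' score, scaled from that rate, from 540 to 1000, and it was used within the vehicle list only. The lists hold no counts, so the depth at a site cannot be read from them. Read totals in the study's reporting summary were not used.

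All intervals lay inside the chromosomes of mm9, with 0 outside, and were annotated with NCBIM37 and GENCODE vM1. Intervals were refined as the study describes (150 bp, 1000 bp) and sorted by overlap of 1 bp. A TSS region came within 1000 bp of a transcript start. Motifs (22 patterns) were searched within 200 bp of the centre. Other copies were sought with BLAST (2.17.0). Shares have Wilson and differences Newcombe intervals, and medians exact order-statistic intervals, at 95%. Python 3.11.15, numpy 2.4.6, scipy 1.17.1 and pysam 0.24.0 were used, and the code was tested on simulated data.

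The members and gene lists were chosen with earlier results of these data known. Regions were ordered by score, number of peaks and width. Those named are the first 10, the widest 5, the first 10 at a protein-coding TSS, those of genes with 3 or more, and those of listed genes; printed are the first 2 distal ones outside exons, and the first 2 with an AP-1 and with a CTCF match. A gene of the junction list, and with it the count of that list, is not reported here. Of the genes listed, 2 mammary transcription factors were not matched in the annotation. Alternatives changed the width filter, merging, overlap, scores, TSS window and motif window.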

Additional observations from a re-analysis of the deposited data

Results flagged for a closer look

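The refinement left out narrow intervals, which no comparison used. Of the 1448 vehicle intervals under 150 bp, 70 lay inside a vehicle region, and 336 lay in no vehicle region and met no deposited interval of the TGFβ or 10 min list of any width. These 336 were calls of the vehicle list only that the 705 regions do not include, and no control list exists for them. They are single intervals and not merged regions. Without a width filter the rule gave 820 vehicle-only regions, which overlapped 659 of the 705.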

How the results depend on the processing

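The report's 8 main results were recomputed under the alternatives, 80 values in all, of which 47 stayed within the interval of the reported value (for the number of regions, within 1.5 times) and 33 did not. Without a width filter the vehicle-only share of the list was 4.07% and the median width 211 bp. With intervals under 300 bp dropped, 17.9% of regions lay at a TSS, AP-1 matches were in 28.2% and CTCF matches in 6.64% of distal regions, the median width was 365.5 bp and the GC content 50.7%. With only touching intervals merged the TSS share was 17.9% and the GC content 50.1%. Counting a gap under 1000 bp as overlap gave a share of 3.27%. Asking for the centre inside another region gave 4.20%, a TSS share of 16.8%, a median of 252 bp and a GC content of 50.1%. With vehicle peaks at or above their median score 14 regions remained, 0.155% of the list, with a TSS share of 0, an AP-1 share of 7.14%, a median of 193.5 bp, a GC content of 47.5% and 42.9% in a gene body. With every list so limited there were 389 regions (4.30%), a TSS share of 29.6%, AP-1 in 32.8%, CTCF in 4.01%, a median of 351 bp, a GC content of 52.6% and 61.4% in a gene body. Those 2 settings and the 300 bp filter change the regions themselves, and 14, 14 and 197 of the 705 were among theirs. A TSS window of 200 bp gave a TSS share of 7.94% and protein-coding transcripts only 10.4%. A motif window of 500 bp each side gave AP-1 in 27.0%, and a mismatch in the CTCF core gave 27.6%. That mismatch, the omission of chromosome 15 and the omission of the 18 regions with another copy were chosen after seeing the data, and the last 2 moved none of the values recomputed.

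No paired analysis was possible because no condition had more than 1 list, and there was no replicate to leave out. The share of repeats was not run, because the genome used here does not mark them. The lists hold no reads, and the limit that depth sets on the calls of each list was not tested.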
